A study of Mus musculus with 8 samples.

Results

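The 39 genes described here are interferon-stimulated effector genes, the genes that a cell turns on when interferon reaches it and whose products block viruses, edit or bind foreign RNA, or carry the signal further. They were chosen as a named list with earlier results of these data known, and all 39 were found among the 22609 gene symbols of the count tables. The cells were immortalized mouse dental papilla cells, the mesenchymal cells under the enamel organ from which odontoblasts arise, in 2 lines: iBmp2fx/fx cells, labelled Bmp2 floxed/floxed, carry Bmp2 flanked by recombination sites, and iBmp2ko/ko cells, labelled Bmp2 knock out, lack it. Bmp2 is a secreted growth factor needed for dentin formation. Total RNA of each line at 6, 24, 48 and 72 h of culture was sequenced, 1 library for each line and time and 8 in all. The series' design text names 8 h where the sample labels name 6 h, and the labels are followed here. No treatment other than culture time is named, and whether either line is a single clone, or how Bmp2 was removed, is not given in the sources used here. The cells were harvested in dishes at the stated times, but whether the dishes were started independently is not given in the sources used here, so the p-values below measure the spread between these libraries.

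As background, type I interferons bind the receptor pair Ifnar1 and Ifnar2, whose kinases Jak1 and Tyk2 phosphorylate transcription factors, Stat2 among them. Stat2 acts with Irf9 in a complex that binds the interferon-stimulated response element (ISRE) in the promoters of such genes, while type II interferon acts through the gamma-activated site (GAS). Many of the genes are also expressed at a low level without infection, and some of their products, among them Stat2, Irf9 and Irf7, are parts of the pathway itself.

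The promoters of 4 groups of members that the results turn on are shown first, as the 250 bases before the start site given by RefSeq on build GRCm38.p6, 5′ to 3′ on the gene's strand. Capitals mark matches to the ISRE core GAAANNGAAA on either strand, overlapping matches running together. Isg15, Ifit1, Ifit3 and Bst2 are among the members with the most matches, and Trim30a and Trim30d are the neighbouring pair with the lowest adjusted p-values.
Isg15 (chr4:156200819-156201068, minus strand): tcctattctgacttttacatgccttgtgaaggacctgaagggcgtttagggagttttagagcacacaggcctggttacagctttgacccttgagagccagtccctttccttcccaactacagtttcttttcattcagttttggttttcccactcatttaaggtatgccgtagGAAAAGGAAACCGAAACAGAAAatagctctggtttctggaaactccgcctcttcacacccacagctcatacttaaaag
Ifit1 (chr19:34640639-34640888, plus strand): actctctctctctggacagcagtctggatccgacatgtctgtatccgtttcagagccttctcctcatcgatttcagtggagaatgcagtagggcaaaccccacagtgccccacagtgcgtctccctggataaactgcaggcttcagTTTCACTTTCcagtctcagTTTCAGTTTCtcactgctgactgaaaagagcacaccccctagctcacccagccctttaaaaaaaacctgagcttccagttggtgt
Ifit3 (chr19:34583279-34583528, plus strand): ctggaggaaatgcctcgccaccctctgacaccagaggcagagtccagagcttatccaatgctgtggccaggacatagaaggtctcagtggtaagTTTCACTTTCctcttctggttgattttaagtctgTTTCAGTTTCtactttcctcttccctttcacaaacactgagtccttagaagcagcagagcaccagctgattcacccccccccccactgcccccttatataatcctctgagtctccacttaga
Bst2 (chr8:71537473-71537722, minus strand): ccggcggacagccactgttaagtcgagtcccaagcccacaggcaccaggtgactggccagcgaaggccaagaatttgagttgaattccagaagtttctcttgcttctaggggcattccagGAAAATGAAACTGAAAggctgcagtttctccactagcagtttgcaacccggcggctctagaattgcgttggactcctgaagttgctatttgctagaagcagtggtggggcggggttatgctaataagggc
Trim30a (chr7:104465194-104465443, minus strand): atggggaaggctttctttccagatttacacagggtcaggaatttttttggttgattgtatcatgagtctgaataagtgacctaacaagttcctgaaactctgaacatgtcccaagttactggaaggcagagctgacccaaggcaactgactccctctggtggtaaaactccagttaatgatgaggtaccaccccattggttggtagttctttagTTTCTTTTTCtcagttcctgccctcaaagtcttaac
Trim30d (chr7:104507850-104508099, minus strand): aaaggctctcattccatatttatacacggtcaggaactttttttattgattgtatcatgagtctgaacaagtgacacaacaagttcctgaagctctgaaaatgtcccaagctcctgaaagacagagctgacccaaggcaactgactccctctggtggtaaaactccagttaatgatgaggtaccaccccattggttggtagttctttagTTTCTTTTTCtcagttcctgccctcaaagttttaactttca
With the base before the start counted as -1, the matches began at -78, -72 and -66 in Isg15, at -104 and -85 in Ifit1, at -156 and -122 in Ifit3, at -130 and -124 in Bst2, at -36 in this Trim30a promoter and at -41 in Trim30d. Of the 39 members, 32 had a promoter in the table. Over 300 bases (250 before and 50 after the start), 15 of these 32 held the ISRE core (46.9%), against 3.99% of 27025 genes. With overlapping matches counted separately, 8 of the 32 held it at least 2 times (25% against 0.266%). The GAS letters TTCNNNGAA, which read the same on both strands, stood in 10 of the 32 (31.2% against 9.55%). The median log2 fold change between the lines, described below, was 1.64 for the 15 members with an ISRE core and 1.09 for the 17 without. A match is a string of letters and no evidence of binding.

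Before the results, 1 library has to be set apart. Of all 28 pairs of libraries, the library labelled iBmp2ko/ko of 24 h and the iBmp2fx/fx library of 6 h were the closest. Over the 10937 genes with a mean above 100 counts, the SD of their log2 difference was 0.123, against 0.308 to 1.04 in the other pairs. For the members, 32 of the 39 were nearest in level to the iBmp2fx/fx library of 6 h among the other 7 libraries, with differences from -0.20 to 0.16 on the log2 scale and a median of 0.04. The files were not identical: 76.0% of the 10937 genes lay within 2 counting SDs of each other, as did 32 of the 39 members. Il28ra, which encodes the receptor chain for type III interferon, had 184 counts in that library and 199 in the iBmp2fx/fx library of 6 h, but 20, 29 and 11 in the other iBmp2ko/ko libraries. Bmp2 RNA had 0 counts in both lines at 6, 48 and 72 h. It could not check the labels, as it had 0 counts in 7 libraries and 1 in the iBmp2fx/fx library of 24 h. Tests were therefore run on 6, 48 and 72 h, which are the times in the study's methods, and the 24 h pair is given apart and as an alternative.

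**Figure D1:**
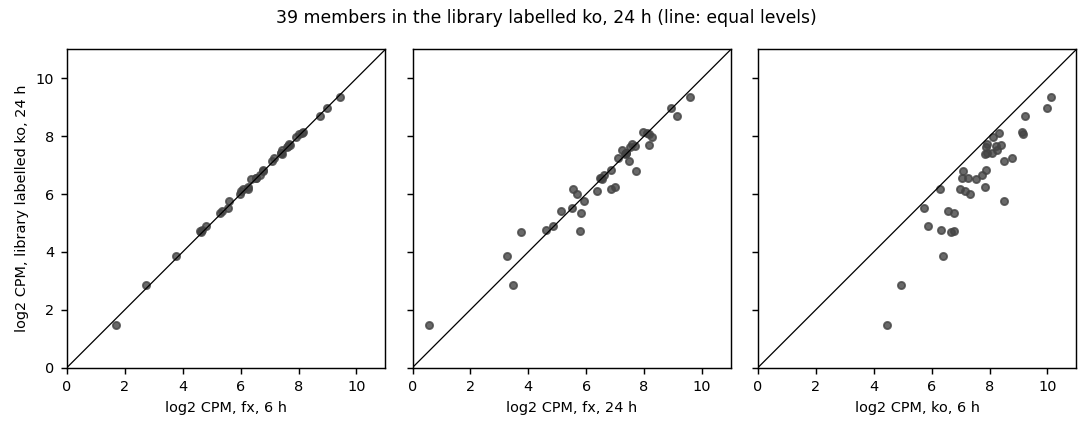
Each point is 1 of the 39 members, as log2 CPM (counts scaled to a library total of 1000000, with 0.5 counts added) in the library labelled iBmp2ko/ko of 24 h (vertical axis) against 3 other libraries (horizontal axes), with the line of equal levels. The points lie on the line against the iBmp2fx/fx library of 6 h (differences from -0.20 to 0.16) and all below it against the iBmp2ko/ko library of 6 h.

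All 39 members were higher in the iBmp2ko/ko library than in the iBmp2fx/fx library at each of 6, 48 and 72 h, a pattern held by 30.8% of all 13121 genes tested. The median difference over the members was 0.99 at 6 h, 2.06 at 48 h and 1.30 at 72 h on the log2 scale, where the median of all genes was 0.01, 0.02 and 0.01. Summed over the members, the iBmp2fx/fx libraries held 5686, 3082 and 2514 CPM at 6, 48 and 72 h, and the iBmp2ko/ko libraries 10292, 11130 and 5156 CPM. In bulk RNA, more cells that express a gene and more RNA per cell cannot be told apart. The libraries held 25890110 to 32415665 counted reads, so 3 counts, the floor used here, corresponded to 0.0925 to 0.116 CPM, and no member was at the floor in any library.

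The comparison of the lines set 3 iBmp2ko/ko libraries against 3 iBmp2fx/fx libraries, with edgeR's quasi-likelihood test and Benjamini-Hochberg adjustment over the 13121 genes. As each line had 1 library at each time, the spread within a line includes the change over culture. There was 1 line of each genotype, so Bmp2 loss cannot be told apart from other differences between the lines. At an adjusted p of at most 0.05 and a log2 fold change of at least 1 (the adjusted limit), 4 members were higher in iBmp2ko/ko cells: Oas2, Sp100, Trim30a and Trim30d (10.3% of the members, against 0.899% of all genes). At an unadjusted p below 0.05 with a log2 fold change above 1, the limit in the study's methods, 20 members passed (51.3% against 3.31%). A figure legend of the study instead gives a Q value of at most 0.05, and the study tested with limma. With culture time as a block, which compares the lines within each time, 24 members passed the adjusted limit (61.5% against 3.78%). DESeq2 without the block called 13 (33.3% against 2.07%), the 4 and Ifit1, Isg15, Mx1, Mx2, Cmpk2, Bst2, Gbp3, Igtp and Xaf1, and in what follows a call is one of edgeR unless DESeq2 is named. None was lower in iBmp2ko/ko cells under any of these limits. The median log2 fold change was 1.50 over the members and 0.03 over all genes, from 0.45 for Oasl1 to 3.40 for Ifit3. The 4 calls depended on single libraries: leaving out either line's library of 6 h or of 48 h left 0 (against 0.0225 to 0.27% of all genes), leaving out the iBmp2fx/fx library of 72 h left 1 (against 0.389%), and leaving out the iBmp2ko/ko library of 72 h gave 6 (against 1.4%). The 20 at the unadjusted limit became 32 without the iBmp2fx/fx library of 6 h (82.1% against 3.86%) and 11 without the iBmp2ko/ko one (28.2% against 2.71%). Without those of 48 h they became 8 (20.5% against 2.79%) and 9 (23.1% against 2.64%). In 9 members the 3 iBmp2ko/ko libraries of 6, 48 and 72 h lay above the 3 iBmp2fx/fx libraries of those times (23.1% against 8.76%): Oas2, Isg15, Mx2, Samhd1, Ifitm3, Eif2ak2, Sp100, Trim30a and Trim30d. With the iBmp2fx/fx library of 24 h counted as well, a choice made after seeing the data, 7 remained (17.9% against 7.77%), without Isg15 and Eif2ak2. With the 24 h pair added, all 8 libraries gave 0 members at the adjusted limit in edgeR (0% of all genes) and 16 at the unadjusted one (41% against 2.08%).

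**Figure D2:**
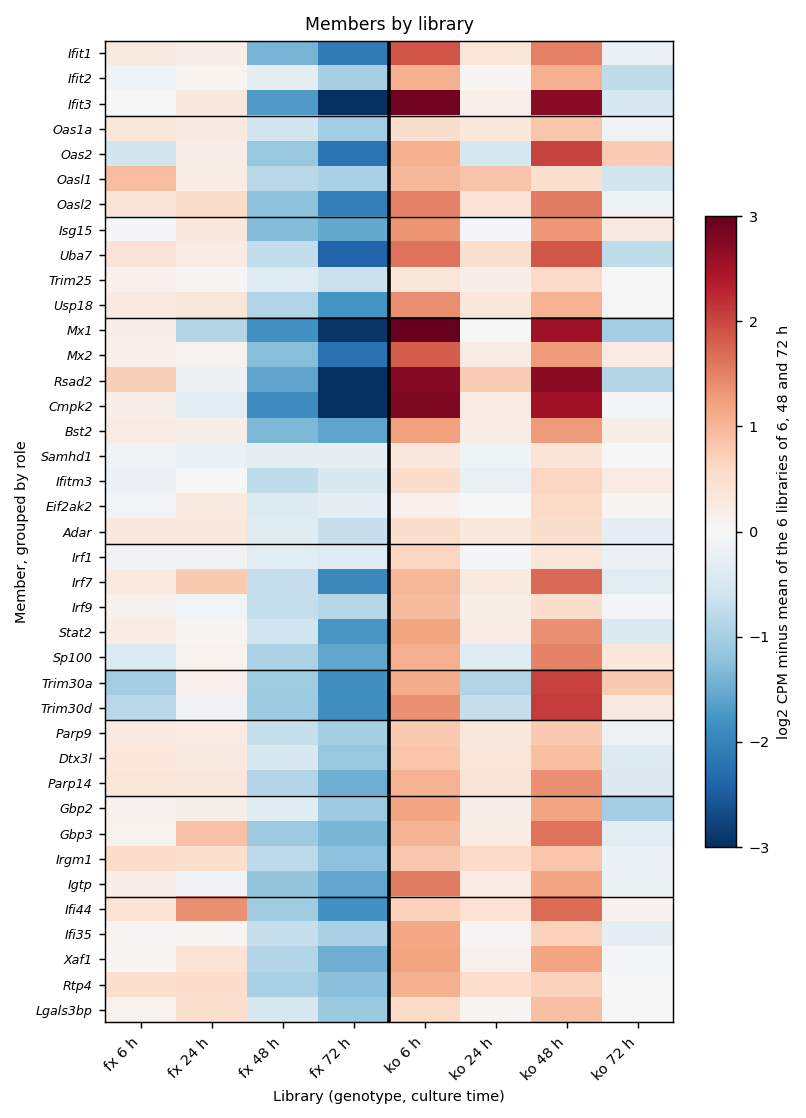
Rows are the 39 members grouped by role and columns the 8 libraries by line and culture time; colour gives log2 CPM minus the member's mean over the 6 libraries of 6, 48 and 72 h, and saturates at 3 either way. Most members are highest in the iBmp2ko/ko libraries of 6 and 48 h and lowest in the iBmp2fx/fx library of 72 h, and the library labelled iBmp2ko/ko of 24 h resembles the iBmp2fx/fx library of 6 h.

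**Figure D3:**
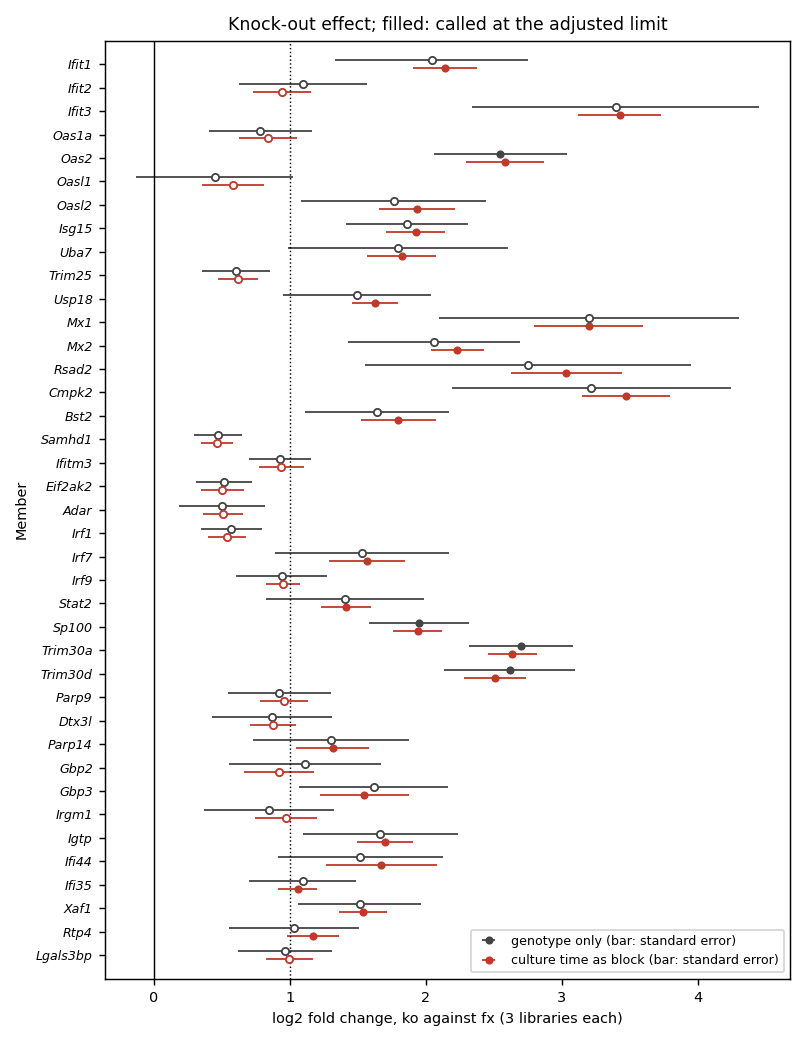
Points are the log2 fold changes of iBmp2ko/ko over iBmp2fx/fx cells from 3 libraries a line, with bars of 1 standard error, for the fit on genotype only (grey) and with culture time as a block (red); filled points passed the adjusted limit. The estimates of both fits are close, with the standard errors smaller under the block, where 24 of 39 members passed against 4.

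The TRIM30 proteins, tripartite-motif proteins induced by interferon, of which Trim30a restrains inflammatory signalling, showed the smallest adjusted p-values. Trim30a was at 24.3, 23.8 and 14.1 CPM in iBmp2fx/fx cells at 6, 48 and 72 h and at 109, 207 and 85.7 CPM in iBmp2ko/ko cells. The lowest iBmp2ko/ko value was above the highest iBmp2fx/fx value, and the level in iBmp2ko/ko cells peaked at 48 h. Trim30a rose by a log2 fold change of 2.70 ± 0.38 (SE, n = 3 libraries a line, edgeR adjusted p = 0.0192). Trim30d was lower in level, at 6.69, 5.58 and 3.32 CPM against 30.7, 50.3 and 14.3 CPM, and rose by 2.62 ± 0.48 (edgeR adjusted p = 0.0432). The genes lie side by side on the minus strand of chromosome 7 in mm9 (chr7:111557539-111613707 and chr7:111618528-111656363), with starts 42656 bases apart. Of the 50-base windows of the Trim30d transcript, 8.57% also occur in a transcript of another gene, Trim30a among them, and 1.55% of those of Trim30a, so part of the counts of these copies is uncertain.

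The IFIT proteins bind foreign viral RNA and stop its translation. Ifit3 had the largest log2 fold change of the 39, with 48.7, 15.1 and 4.57 CPM in iBmp2fx/fx cells and 360.0, 319 and 35.0 CPM in iBmp2ko/ko cells at 6, 48 and 72 h. It was 7.40, 21.2 and 7.67 times higher in iBmp2ko/ko cells at the 3 times, but the 72 h level in iBmp2ko/ko cells was below the 6 h level in iBmp2fx/fx cells, so the lines overlapped. The log2 fold change was 3.40 ± 1.05 (adjusted p = 0.207 in edgeR), and 3.42 ± 0.30 with culture time as a block (adjusted p = 0.00053). Ifit1 was at 143, 45.3 and 27.8 CPM against 438, 339 and 104 CPM, which gave 2.04 ± 0.71 on the log2 scale (adjusted p = 0.256; 0.0012 with the block in edgeR). Ifit2 was the member of the group with the smallest difference, 1.10 ± 0.47, and did not pass the adjusted limit in either fit: its adjusted p was 0.358 in edgeR without the block, and its blocked estimate of 0.94 ± 0.21 was under the fold limit. The 3 genes form a cluster on chromosome 19, on the plus strand, with starts 32837 to 90177 bases apart. The 463 genes tested on that chromosome had a median log2 fold change of 0.37, whose part in the result was not tested. For Ifit3, 51.5% of the 50-base windows also occur in I830012O16Rik, a near copy, and the counter set aside reads that map to more than 1 place.

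The OAS family takes its name from enzymes that, on sensing double-stranded RNA, make the 2-5A messenger that activates RNase L. Oas2 was at 75.8, 50.5 and 24.2 CPM in iBmp2fx/fx cells and 232, 454 and 186 CPM in iBmp2ko/ko cells at 6, 48 and 72 h. All 3 iBmp2ko/ko values were above the iBmp2fx/fx values, and Oas2 rose by 2.55 ± 0.49 (edgeR adjusted p = 0.0496), just inside the limit. Oasl2, the most abundant of the group in CPM, was at 262, 84.5 and 47.7 CPM against 571, 574 and 179 CPM, and passed in edgeR with the block (1.93 ± 0.28, edgeR adjusted p = 0.0033; 0.31 without). Oasl1 was nearly equal in the lines at 6 h, at 75.9 and 78.6 CPM, and 2.48 times higher in iBmp2ko/ko cells at 48 h. It had the smallest difference of the 39 (0.45 ± 0.58) and passed no limit. Oas1a, with 0.78 ± 0.38, did not pass either, and 57.1% of its 50-base windows also occur in Oas1b or Oas1g.

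Isg15 is a ubiquitin-like protein that is attached to other proteins, Uba7 is the enzyme that activates it, Trim25 is a ligase of the system that also acts in RNA sensing, and Usp18 removes Isg15 and damps the interferon receptor. Isg15 was at 137, 58.4 and 49.8 CPM in iBmp2fx/fx cells and 361, 351 and 172 CPM in iBmp2ko/ko cells at 6, 48 and 72 h. At these times the lines did not overlap, but the iBmp2fx/fx library of 24 h, at 178 CPM, was above the iBmp2ko/ko library of 72 h. The log2 fold change was 1.86 ± 0.45 (edgeR adjusted p = 0.107; 0.0012 with the block). Usp18 was 2.16, 3.90 and 3.47 times higher in iBmp2ko/ko cells at 6, 48 and 72 h, with 1.50 ± 0.54, and Uba7 2.32, 6.08 and 3.10 times, with 1.8 ± 0.81. Both passed in edgeR with the block and not without it, at blocked adjusted p-values of 0.00096 for Usp18 and 0.0028 for Uba7. Trim25, the most abundant of the group in CPM, was at 206, 142 and 118 CPM against 242, 278 and 184 CPM, and its difference of 0.60 ± 0.25 was below the fold limit.

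Among the 9 other blockers of virus entry and replication, the differences ranged from 0.47 for Samhd1 to 3.22 for Cmpk2. Rsad2, or viperin, makes a chain-terminating nucleotide with Cmpk2, a nucleotide kinase, and their genes lie head to head on chromosome 12 with starts 12752 bases apart. Cmpk2 was at 13.7, 3.33 and 1.02 CPM in iBmp2fx/fx cells and 84.4, 70.0 and 11.7 CPM in iBmp2ko/ko cells at 6, 48 and 72 h, and Rsad2 at 24.9, 5.0 and 1.15 CPM and 101, 98.1 and 8.15 CPM. Both were lowest at 72 h in both lines and were 21.0 and 19.6 times higher in iBmp2ko/ko cells at 48 h. The log2 fold changes were 3.22 ± 1.03 for Cmpk2 and 2.75 ± 1.20 for Rsad2, past the adjusted limit of edgeR with the block (adjusted p = 0.00063 and 0.0026) and not without it, where DESeq2 called Cmpk2 (adjusted p = 0.0051).

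The Mx proteins are dynamin-like GTPases that trap virus particles. Mx1 was the least abundant member, with 99, 25 and 11 counts in iBmp2fx/fx cells and 647, 490 and 35 counts in iBmp2ko/ko cells at 6, 48 and 72 h. Its log2 fold change was 3.20 ± 1.10, and its 72 h level in iBmp2ko/ko cells was below its 6 h level in iBmp2fx/fx cells. Mx1 passed the adjusted limit with the block (3.20 ± 0.40, edgeR adjusted p = 0.0020) and not without it (0.253), where DESeq2 called it (adjusted p = 0.0134). Mx2 was at 25.4, 9.44 and 4.79 CPM against 80.8, 55.5 and 27.3 CPM, with no overlap between the lines. Its log2 fold change of 2.06 ± 0.63 passed the adjusted limit with the block (2.23 ± 0.20, edgeR adjusted p = 0.00053) and not without it (0.202).

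Bst2, or tetherin, holds budding virus at the cell surface, and Ifitm3 blocks virus entry at endosomes. These were the most abundant members per length, with mean RPKM (the read count scaled for exon length and library size) of 832 in iBmp2fx/fx cells and 1578 in iBmp2ko/ko cells for Ifitm3 and of 359.9 and 1113 for Bst2. Bst2 was at 511, 169.6 and 145 CPM in iBmp2fx/fx cells and 1014, 1042 and 494 CPM in iBmp2ko/ko cells at 6, 48 and 72 h, so the 72 h iBmp2ko/ko value lay below the 6 h iBmp2fx/fx value, and in edgeR it passed with the block (1.8 ± 0.28, adjusted p = 0.0044) and not without it, where DESeq2 called it (adjusted p = 0.0277). Ifitm3 was at 685, 450.5 and 557 CPM against 1107, 1193 and 911 CPM without overlap, but its log2 fold change of 0.93 ± 0.23 was under the fold limit. Eif2ak2, the kinase PKR that stops translation on sensing double-stranded RNA, and Samhd1, which depletes nucleotides, did not overlap between the lines at 6, 48 and 72 h either, though Eif2ak2 in the iBmp2fx/fx library of 24 h, at 309.8 CPM, was above its iBmp2ko/ko levels of 6 and 72 h. They had log2 fold changes of 0.52 ± 0.20 and 0.47 ± 0.17, below the fold limit. Adar, which edits adenosine to inosine in double-stranded RNA, differed by 0.50 ± 0.32.

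Of the transcription regulators, Stat2 and Irf9 are parts of the ISRE-binding complex, Irf7 drives a second wave of interferon genes, Irf1 is an early activator, and Sp100 is a component of nuclear bodies. Sp100 was at 39.4, 27.1 and 17.8 CPM in iBmp2fx/fx cells and 110.2, 146 and 66.1 CPM in iBmp2ko/ko cells at 6, 48 and 72 h. The lines did not overlap, and Sp100 rose by 1.95 ± 0.37 (edgeR adjusted p = 0.0476). Stat2, the most abundant in CPM, was at 285, 161 and 73.1 CPM against 556, 629 and 179.8 CPM, and Irf7 at 207, 104 and 44.4 CPM against 338, 548 and 134 CPM. Both were highest in the iBmp2ko/ko library of 48 h and lowest in the iBmp2fx/fx library of 72 h. They passed with the block, at 1.41 ± 0.19 (edgeR adjusted p = 0.0024) for Stat2 and 1.57 ± 0.28 (adjusted p = 0.0082) for Irf7. Irf9 differed by 0.94 ± 0.34 and Irf1 by 0.57 ± 0.22, both below the fold limit.

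Parp9 and Dtx3l form a complex that ADP-ribosylates and ubiquitinates target proteins, and Parp14 is a related enzyme encoded next to them on chromosome 16. Parp14 was at 169.9, 71.8 and 47.5 CPM in iBmp2fx/fx cells and 272, 339.6 and 96.8 CPM in iBmp2ko/ko cells at 6, 48 and 72 h, with 1.30 ± 0.57, and in edgeR it passed with the block (adjusted p = 0.0139) and not without it. Parp9 was 1.44, 2.79 and 1.82 times higher in iBmp2ko/ko cells and Dtx3l 1.42, 2.61 and 1.65 times at 6, 48 and 72 h. Their fitted differences of 0.92 ± 0.38 and 0.87 ± 0.44 were below the fold limit. The starts of Parp9 and Dtx3l, on opposite strands, are 681 bases apart, and 9.40% of the exon bases of Parp9 and 8.00% of those of Dtx3l overlap the other gene. As the strand setting of the counting is not given in the sources used here, reads from that overlap cannot be assigned.

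The interferon-induced GTPases guard the cell against intracellular pathogens, Gbp2 and Gbp3 as guanylate-binding proteins and Irgm1 and Igtp as immunity-related GTPases. Irgm1, the most abundant in CPM, was at 192, 76.9 and 56.6 CPM in iBmp2fx/fx cells and 232, 233 and 116 CPM in iBmp2ko/ko cells at 6, 48 and 72 h. Igtp was at 63.3, 23.9 and 18.5 CPM against 162, 124 and 47.8 CPM. In both genes the iBmp2ko/ko library of 72 h lay below the iBmp2fx/fx library of 6 h. Igtp, with 1.70 ± 0.21 (edgeR adjusted p = 0.0018), and Gbp3, with 1.55 ± 0.33 (adjusted p = 0.0155), passed with the block. Irgm1, with 0.97 ± 0.22 in that fit, and Gbp2, with 0.92 ± 0.26, stayed under the fold limit. Gbp2 was 2.08 and 2.94 times higher in iBmp2ko/ko cells at 6 and 48 h but 1.05 times at 72 h, with 12.1 and 12.6 CPM.

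The 5 remaining members include Lgals3bp, a secreted galectin-binding glycoprotein, Xaf1, which promotes cell death, Rtp4, a receptor transport protein, and Ifi44 and Ifi35. Lgals3bp, the most abundant of them in CPM, was at 427, 285 and 185 CPM in iBmp2fx/fx cells and 594, 748 and 400.4 CPM in iBmp2ko/ko cells at 6, 48 and 72 h, a difference of 0.97 ± 0.35, under the fold limit. Ifi44 was at 109, 39.5 and 23.3 CPM against 134, 263 and 90.2 CPM. It differed little at 6 h, by 1.23 times, and by 6.65 times at 48 h, and passed with the block (1.67 ± 0.41, edgeR adjusted p = 0.0247). Xaf1, Ifi35 and Rtp4 passed with the block as well, at 1.54 ± 0.18, 1.06 ± 0.14 and 1.17 ± 0.19. Without the block edgeR called none of these 3, and DESeq2 called Xaf1 (adjusted p = 0.023). For Ifi35, 16.8% of the exon bases overlap Gm11626 on the opposite strand.

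Over culture, the members were lower at 72 h than at 6 h in both lines. Every one of the 39 was lower at 72 h in iBmp2fx/fx cells, where the median difference was -1.51 on the log2 scale and 56.4% of all genes were lower, and every one was lower in iBmp2ko/ko cells, at -1.25, where 54.6% of all genes were lower. In the fit with genotype as a covariate (2 libraries at each time), 26 of the 39 fell at the adjusted limit (66.7% against 10.9% of all genes), and the same number at the unadjusted limit (against 11.6%). The number depended on the fit: a trend on log2 culture time called 0 members (0% of all genes), and all 8 libraries called 14 (35.9% against 7.42%). Without the iBmp2ko/ko library of 72 h 15 fell at the adjusted limit (38.5% against 5.95%), and without the iBmp2fx/fx library of 6 h 17 (43.6% against 10.3%). The largest falls were those of Rsad2 (-4.06 ± 0.52, edgeR adjusted p = 0.0014), Mx1 (-3.76 ± 0.52, 0.0019), Ifit3 (-3.36 ± 0.37, 0.00088) and Cmpk2 (-3.24 ± 0.40, 0.0013). The 13 that did not pass were Oas1a, Oas2, Trim25, Samhd1, Ifitm3, Eif2ak2, Adar, Irf1, Irf9, Sp100, Trim30a, Trim30d and Lgals3bp. The 4 members that passed the adjusted limit between the lines were lower at 72 h than at 6 h in both lines as well, with fitted changes of -0.96 ± 0.33 for Oas2, -0.88 ± 0.21 for Sp100, -0.51 ± 0.21 for Trim30a and -0.99 ± 0.28 for Trim30d.

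The 48 h values stood differently in the lines, though neither test of the lines' courses, given after the values, called a member at the adjusted limit. At 48 h, all 39 were below their 6 h level in iBmp2fx/fx cells, by a median of -0.95 on the log2 scale, when 57.8% of all genes were lower. In iBmp2ko/ko cells 15 of 39 were lower at 48 h, when 54.3% of all genes were, and the median difference was 0.01. Oas2, for example, was at 232 CPM at 6 h and 454 CPM at 48 h in iBmp2ko/ko cells, and Irf7 at 338 and 548 CPM. The difference between the lines at 48 h was set against that at 6 and 72 h together, in a fit with culture time as a block that was chosen after seeing the data and leaves 1 residual degree of freedom. It was larger at 48 h in all 39, by a median of 0.84 on the log2 scale, where the median of all genes was 0.02. In edgeR 0 members passed the adjusted limit (0% of all genes), with a smallest adjusted p of 0.177, and 16 passed the unadjusted limit (41% against 2.73%). The interaction of genotype with log2 culture time, which follows a straight line from 6 to 72 h and does not single out 48 h, called 0 of the 39 in edgeR at the adjusted limit (0% of all genes) and 0 at the unadjusted limit (against 0.48%), and the smallest unadjusted p among the members was 0.0866, for Ifi44. The interaction estimate, scaled to the step from 6 to 72 h, was above 0 in 34 of the 39 members with a median of 0.79, and in 52.7% of all genes with a median of 0.02. Both tests have 1 library behind each line and time.

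**Figure D4:**
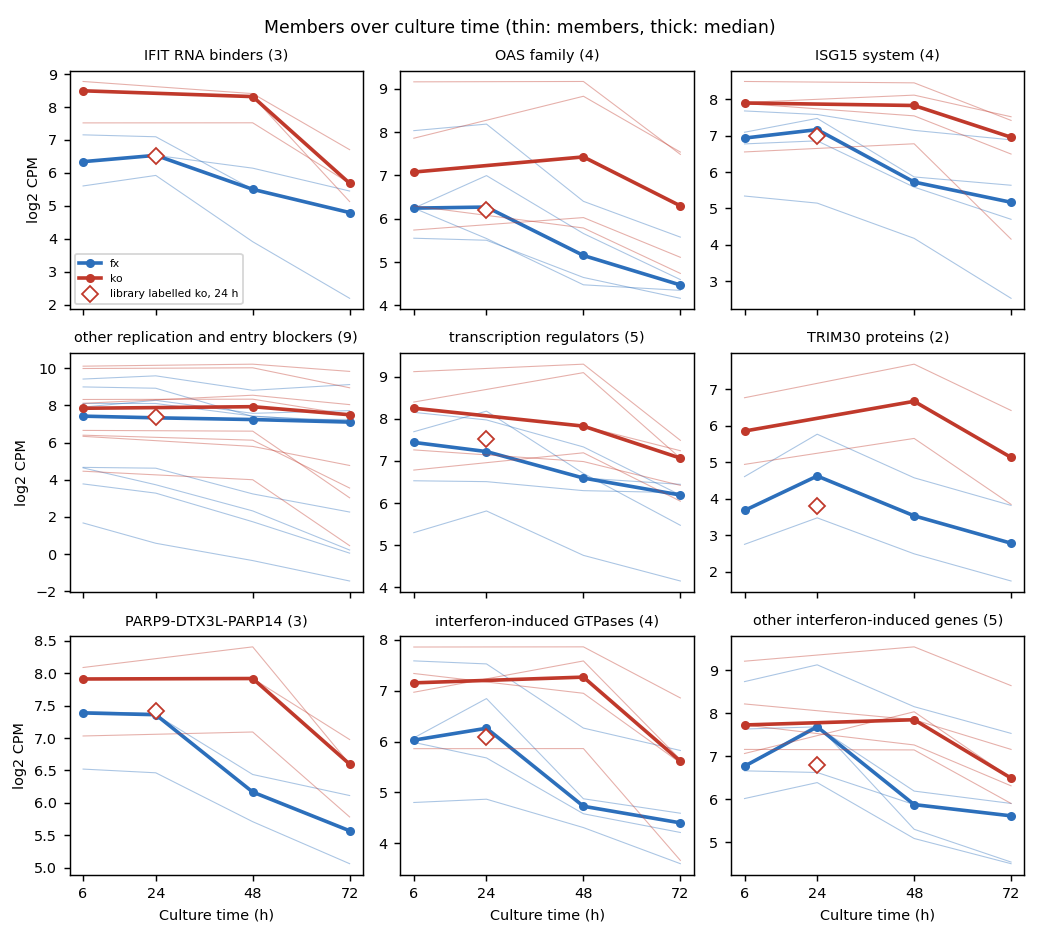
Each panel is a group of members by role, with log2 CPM against culture time in hours for iBmp2fx/fx (blue) and iBmp2ko/ko cells (red); thin lines are members, thick lines their median, and the open diamond is the group median in the library labelled iBmp2ko/ko of 24 h. The iBmp2fx/fx medians are lower at 48 h than at 6 h in every panel, and those of iBmp2ko/ko cells are lower at 72 h than at 48 h in every panel.

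At 24 h, with 1 library a line and the label of the iBmp2ko/ko library in doubt, no test was made. The library labelled iBmp2ko/ko had 22 of the 39 members above the iBmp2fx/fx library (56.4%, against 58.0% of all genes), with a median difference of 0.01 on the log2 scale. Trim30a was at 54.6 CPM in the iBmp2fx/fx library of 24 h and 26.6 CPM in the library labelled iBmp2ko/ko, Oas2 at 128 and 76.6 CPM, and Ifi44 at 214 and 112 CPM. These were higher in the iBmp2fx/fx library, the other way round from 6, 48 and 72 h. Rsad2, at 13.3 and 25.7 CPM, and Mx1, at 1.48 and 2.77 CPM, were higher in the library labelled iBmp2ko/ko. Within iBmp2fx/fx cells, 21 of the 39 were lower at 24 h than at 6 h (53.8%, against 57.0% of all genes), with a median of -0.02 (-0.07 over all genes).

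The other genes of the pathway were taken from lists. The interferons were barely detected: of 19 ligand genes, 18 were too low to test, and Ifnb1, the interferon beta gene, had 2, 0 and 0 counts in iBmp2fx/fx cells and 3, 9 and 2 in iBmp2ko/ko cells at 6, 48 and 72 h. The one tested, Ifnz, differed by 0.72 ± 0.47 (edgeR adjusted p = 0.581). For the receptors, log2 fold changes were -0.13 for Ifnar1, 0.27 for Ifnar2, 0.36 for Ifngr1 and 0.21 for Ifngr2, none past a fold limit. Il28ra was lower in iBmp2ko/ko cells, at 6.40, 4.13 and 1.66 CPM against 0.681, 0.948 and 0.425 CPM, and fell by 2.48 with the block (edgeR adjusted p = 0.0022; 0.0795 without).

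Of the signalling genes, log2 fold changes of the kinases were under the fold limit, with Jak1 at -0.33, Jak2 at -0.54 and Tyk2 at 0.13, as was that of the feedback inhibitor Socs1, at 0.39. Of 12 RNA and DNA sensing genes tested, 11 were higher in iBmp2ko/ko cells, as were 7032 of all 13121 genes, and 3 passed the adjusted limit, 2 higher and 1 lower, as did 118 and 169 of all genes. Nlrx1, a mitochondrial regulator, rose by 3.11 ± 0.48 (edgeR adjusted p = 0.0243) and the nucleic acid sensor Zbp1 by 2.74 ± 0.52 (0.0473), whereas Irf5, a regulator of inflammatory genes, fell by 1.57 (0.0348). Ddx58 and Ifih1, the cytoplasmic RNA sensors RIG-I and MDA5, differed by 0.88 ± 0.29 and 1.60 ± 0.41, and Ifih1 passed with the block (edgeR adjusted p = 0.0034). So did Dhx58, a regulator of these sensors, at 1.58 ± 0.24 (adjusted p = 0.0043) and the RNA receptor Tlr3 at 1.59 ± 0.28 (adjusted p = 0.0073).

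Of the 12 immune cell markers, 7 to 9 were at or under 3 counts in each library, and the pan-leukocyte gene Ptprc, the macrophage gene Emr1, the T cell gene Cd3e and Siglech of plasmacytoid dendritic cells had 0 to 2 counts throughout. The summed level of that list was 26.6 to 44.7 CPM in iBmp2fx/fx and 25.4 to 46.0 CPM in iBmp2ko/ko cells over 6, 48 and 72 h, mostly from Cd14. The myeloid markers Cd68 and Csf1r were lower in iBmp2ko/ko cells, with log2 fold changes of -1.43 and -1.62 (adjusted p = 0.262 and 0.186 in edgeR; 0.0272 and 0.0118 with the block), while Cd14, the remaining one tested, was at 0.18. Of the 4 endothelial and 5 epithelial markers only Kdr, at -1.32, and Krt14, at -1.39, were high enough to test. With the block both passed the adjusted limit as lower in iBmp2ko/ko cells, at -1.30 and -1.45, as did 613 of all 13121 genes. Neither passed it without the block. The mesenchymal genes Col1a1, Col1a2, Col3a1 and Vim were among the abundant transcripts, Col1a1 at 3676, 2891 and 2927 CPM in iBmp2fx/fx and 4907, 3313 and 3606 CPM in iBmp2ko/ko cells. The dental mesenchyme markers Msx1 and Pax9 had 105 to 233 and 51 to 109 counts, and Lhx8 had 0 or 1. Of the 10 mesenchymal markers tested, 6 were higher and 4 lower in iBmp2ko/ko cells. Thy1, a stromal marker, rose by 1.17 ± 0.19 (edgeR adjusted p = 0.0297) and Col3a1 by 1.46 ± 0.22 with the block (adjusted p = 0.0042; 0.0534 without), whereas Msx1 was at -0.79 ± 0.25 and Twist1 at -0.30 ± 0.16. The part of these markers in the result was not tested.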

How the data were processed

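Gene expression was measured by RNA sequencing of total RNA in 8 libraries, 1 for each of the iBmp2fx/fx and iBmp2ko/ko lines at each culture time. Alignment to mouse mm9 used TopHat2 2.0.8b, and the authors deposited raw read counts per gene made with HTSeq. CASAVA 1.8.2 is also named in the submitters' processing notes. The labels state single-end reads of 50 bases, the study's methods paired reads. Reads that mapped to more than 1 place were tallied apart (41.3 to 49.6% of all tallied) and left out, as were the other rows that name no gene (5 in all), of which reads outside any gene made up 8.22 to 12.5%. The files on long non-coding RNAs were not used.

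Counts were scaled with TMM and filtered with filterByExpr (minimum count of 10), and tested with the quasi-likelihood test of edgeR 4.0.16 in R 4.3.3, with Benjamini-Hochberg adjustment over all 13121 genes tested. The SE given for edgeR fits was derived from the test, as the absolute log2 fold change divided by the square root of the F statistic. Levels are in CPM, counts scaled to a library total of 1000000, and log2 levels add 0.5 counts. RPKM was computed here from merged exon lengths of GENCODE M1. Alternatives were culture time as a block, all 8 libraries, 7 libraries, DESeq2 1.42.0, limma 3.58.1, other scalings, filters and time scales, and leaving out each library; a contrast of 48 h against 6 and 72 h was added after seeing the data. Same-time libraries of both lines deviated together from their line's mean (correlation 0.697 at 6 h, 0.514 at 48 h and 0.824 at 72 h, against -0.685 to 0.171 for other pairs), and culture time, given in the labels, was taken as pairing them. The scripts were tested on simulated counts. Promoter sequences are from RefSeq (GRCm38.p6) and were matched by symbol, while gene positions are mm9. The members, the lists of other genes and the rule for giving values in every library (within each role, the member with the highest mean CPM and that with the largest fold change, and each called at the adjusted limit) were chosen with earlier results of these data known, and other members were described after their values were seen. Some values of the signalling list are not reported here.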

Additional observations from a re-analysis of the deposited data

How the results depend on the processing

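All 39 members kept a higher level in iBmp2ko/ko cells under each alternative run for that comparison, but the number called at the adjusted limit, 4 in the main design, depended on the design. With the share of all genes called in the same fit in parentheses, it was 24 with culture time as a replicate block (3.78%), 13 with DESeq2 (2.07%), 2 with 7 libraries, without the library labelled iBmp2ko/ko of 24 h (1.3%), 1 with total counts in place of TMM (0.846%), 1 when a minimum of 10 counts was asked of each library (0.436%), and 0 with all 8 libraries without (0%) and with the replicate block (0.0689%). It stayed at 4 with limma (0.876%), RLE size factors (0.915%) and no filter (0.75%). With all 8 libraries the median log2 change was 0.91 instead of 1.50. Leaving out 1 library gave 0 to 6 members at the adjusted limit (0.0225 to 1.4% of all genes), with 0 without the iBmp2fx/fx or the iBmp2ko/ko library of 6 h or of 48 h, and 8 to 32 at the unadjusted limit (2.64 to 5.12%). In the block, leaving out both libraries of 1 time (chosen after seeing the data) gave 31 members without 6 h (3.38%; 31 also at the unadjusted limit, 4.3%), 20 without 48 h (3.05%) and 26 without 72 h (3.52%).

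For 72 h against 6 h, with 26 members lower in the main design, all 8 libraries gave 14 at the adjusted limit (7.42% of all genes). A trend on log2 culture time gave 0 at the adjusted limit (0%), 15 at the unadjusted limit (3.25%) and a median of -1.02. Leaving out 1 library gave 15 to 33 at the adjusted (5.95 to 11.1%) and 17 to 33 at the unadjusted limit (9.25 to 12.2%), with medians from -1.63 to -0.85; the lowest count was without the iBmp2ko/ko library of 72 h and 17 were called without the iBmp2fx/fx library of 6 h. Of the single members, Ifitm3 (-0.38 to 0.011) and Eif2ak2 (-0.26 to 0.21) changed sign. In its main fit the interaction called 0 members at the adjusted limit (0% of all genes) and 0 at the unadjusted limit (0.48%). The cause of these shifts was not tested. With 1 library per line and time, the number of libraries limits the precision.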

Other observations

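Of 48 further interferon-stimulated genes, 44 were tested, and 43 of these were higher in iBmp2ko/ko cells in the main comparison, Tap2 being the exception, against 7032 of all 13121 genes. Their median log2 fold change was 1.20. At the adjusted limit 2 passed (0.899% of all genes did), both guanylate-binding proteins, Gbp4 and Gbp9. Gbp4 was at 0.289, 0.247 and 0.192 CPM in iBmp2fx/fx cells and 3.51, 5.36 and 1.66 CPM in iBmp2ko/ko cells at 6, 48 and 72 h. It rose by 3.83 ± 0.53 (edgeR adjusted p = 0.0178). Its iBmp2fx/fx libraries held only 9, 8 and 6 counts, under the filter's minimum count of 10, against 103, 164 and 43 in iBmp2ko/ko cells. Gbp4 thus entered the test through its iBmp2ko/ko counts, and the size of its difference rests on low iBmp2fx/fx counts. Gbp9 rose by 2.83 ± 0.49 (edgeR adjusted p = 0.0346). With culture time as a block 22 passed (3.78% of all genes), among them the immunity-related GTPase Iigp1 and the nuclear body protein Sp110. From 6 to 72 h, 25 of the 44 fell at the adjusted limit (10.9% of all genes), with a median of -1.22. No test compared this list with the 39 members.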
